A study of Mus musculus with 2 samples.

Results

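The genes described here were the sarcomeric myosin heavy chains of mouse limb muscle that define developing and adult fibres: Myh3 (embryonic), Myh8 (perinatal), Myh4 (adult fast IIb), Myh1 (adult fast IIx), Myh2 (adult fast IIa) and Myh7 (slow type I). These 6 of the 32285 genes in the files were taken by symbol. They were read in nuclei of tibialis anterior muscle, profiled by single-nucleus RNA-seq in 2 libraries. The library labelled AHRfl/fl came from male mice that carry floxed alleles of the aryl hydrocarbon receptor gene Ahr (strain AHRtm3.1Bra/J). The library labelled AHRmKO came from male mice in which these alleles were combined with Tg(ACTA1-cre/Esr1*)2Kesr/J, a transgene whose skeletal muscle actin promoter drives a Cre recombinase fused to an oestrogen receptor domain. All mice, those of the AHRfl/fl group included, had chronic kidney disease, had undergone femoral artery ligation 5 days earlier and were 16 to 20 weeks old. How many mice stood behind each library was not stated. With 1 library per group there is no replicate check: no difference between the libraries was tested, and every interval below is a 95% interval for counting error only.

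Myosin heavy chain is the motor protein of the thick filament, and the isoform a fibre makes sets its speed of contraction. Newly formed fibres, in the embryo and again after injury, first make the embryonic and perinatal isoforms and later replace them with an adult one. The tibialis anterior of adult mice is a fast muscle in which IIb and IIx fibres predominate, with few IIa and hardly any slow fibres. A myonucleus can transcribe more than 1 isoform, and such hybrid states are common while fibres mature.

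The matrices held 151788328 UMIs (unique molecular identifiers, each 1 counted RNA molecule) in the AHRfl/fl library and 113737134 in the AHRmKO library. Fibre barcodes were those with at least 2000 UMIs of which at least 1% came from Ttn, Neb, Trdn and Dmd together, 4 long muscle transcripts that are no members. There were 5144 of them among 19056 barcodes of that depth in the AHRfl/fl library and 3771 of 9015 in the AHRmKO library. Their median depth was 5137.5 and 3885 UMIs and their median mitochondrial share 0.705% and 2.31%. All 8 fibre genes used to check the gate were higher in them than in macrophage-class barcodes of the same library, for example Ryr1, the calcium release channel, at 1409 against 106 CPM (UMIs per 1000000 UMIs of the set) and 2362 against 84.8 CPM. The gap was smaller for others, as for Acta1, skeletal actin, at 955 against 587 CPM in the AHRfl/fl library and 445 against 59.0 in the AHRmKO library. In AHRfl/fl fibre barcodes Acta1, Mylpf, Ckm and Tnnt3 stood at 24.97% to 65.8% of their level in barcodes of 200 to 499 UMIs. The gate is a range and not a cell type: 368 and 220 barcodes lay between 0.9% and 1.1%. The median share of the 4 gate genes was 2.77% and 4.76% in fibre barcodes. In barcodes of 200 to 499 UMIs, used below as the measure of free RNA, it was 1.005% and 0.744%. The 1% gate thus lies at the level of those low barcodes in the AHRfl/fl library, so passing it does not show that a barcode was a fibre nucleus. Among fibre barcodes the markers of another class that led were those of macrophages in 42.7% and 12.5%, and those of satellite cells or myoblasts in 7.25% and 24.1%. Of the fibre barcode sequences, 7 occurred in both libraries. Ahr itself stood at 31.0 CPM (29.0 to 33.0) in AHRfl/fl fibre barcodes and at 27.7 (25.4 to 30.2) in AHRmKO fibre barcodes. A count over the whole gene cannot separate the floxed segment from the rest, so this value does not check the label, and each library is named only by its label.

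On GRCm38 all members but Myh7 lie in 1 cluster on the forward strand of chromosome 11, in the order Myh3 (chr11:67078300-67102291), Myh2 (chr11:67171027-67197517), Myh1 (chr11:67200052-67224575), Myh4 (chr11:67238029-67260446) and Myh8 (chr11:67277124-67308634). Myh7 lies on the reverse strand of chromosome 14 (chr14:54970684-54994626). The developmental genes thus flank the adult fast ones. The 250 bases before each RefSeq start (GRCm38.p6) were compared, because RNA of more than 1 of the cluster's members was detected in many barcodes. The 4 genes from Myh2 to Myh8 shared stretches of sequence, shown in capitals below with 10 flanking bases on each side, each 5′ to 3′ on the forward strand.
Myh2 (chr11:67170855-67170926): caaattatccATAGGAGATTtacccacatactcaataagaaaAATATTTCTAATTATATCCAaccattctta
Myh1 (chr11:67199876-67199966): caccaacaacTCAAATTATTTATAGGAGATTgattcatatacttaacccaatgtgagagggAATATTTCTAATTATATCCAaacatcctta
Myh4 (chr11:67237615-67237678): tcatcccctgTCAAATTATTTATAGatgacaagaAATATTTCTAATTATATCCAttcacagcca
Myh8 (chr11:67277010-67277093): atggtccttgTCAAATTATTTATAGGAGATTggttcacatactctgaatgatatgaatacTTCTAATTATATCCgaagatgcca

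The run TTCTAATTATATCC was present in all 4 and, on either strand, in no other of 27025 promoters of that length (0.0148% held it). It began at position -160 from the start in Myh1, -158 in Myh4, -125 in Myh2 and -54 in Myh8. Its longer form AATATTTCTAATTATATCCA was held by the adult fast genes Myh2, Myh1 and Myh4 (0.0111% of promoters), and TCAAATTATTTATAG by Myh1, Myh4 and Myh8 (0.0111%). The run ATAGGAGATT, in Myh2, Myh1 and Myh8, was in 9 promoters in all (0.0333%). Neither Myh3 nor Myh7 held any of them. Searched on both strands, TATAAA occurred at -29 in Myh3, at -32 and -208 in Myh1, at -31, -179 and -213 in Myh4 and at -96 in Myh8 (13% of promoters held it). The E-box form CANNTG occurred in Myh3, Myh4, Myh8 and Myh7 (66% of promoters). These matches describe letters and not binding.

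Myh3 had the highest level of the members in fibre barcodes of both libraries, also per length, and Myh2 was the member whose level differed most between them. Myh3 (ENSMUSG00000020908) gave 48234 UMIs, or 1571 CPM (1557 to 1585), in the AHRfl/fl library and 40296 UMIs, or 2162 CPM (2141 to 2184), in the AHRmKO library, a log2 ratio of 0.46 (0.44 to 0.48). Myh8 (ENSMUSG00000055775) was the only abundant member with the lower level in the AHRmKO library, at 583 CPM against 399 (log2 ratio -0.55, -0.59 to -0.51). The 2 developmental isoforms thus differed between the libraries in opposite directions. Myh4 (ENSMUSG00000057003) stood at 529 and 847 CPM (log2 ratio 0.68, 0.65 to 0.71). Myh1 (ENSMUSG00000056328) stood at 686 and 831 CPM (0.28, 0.25 to 0.31). Myh2 (ENSMUSG00000033196) was low in both, at 7.36 CPM from 226 UMIs and 36.1 CPM from 673 UMIs (2.22, 2.08 to 2.52). The slow isoform Myh7 (ENSMUSG00000053093) gave only 19 and 5 UMIs, and its interval of the log2 ratio ran from -2.98 to 0.26.

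By the mark of a 2-fold difference, Myh2 alone of the 6 members was called, as higher in the AHRmKO library. Of 19366 genes tested, 7.12% were called higher and 15.4% lower, and the median log2 ratio was -0.09. These log2 ratios are differences of log2(CPM + 0.5), and in summed nuclei a larger share of nuclei with a transcript and more RNA per nucleus cannot be told apart. Markers of macrophages and of satellite cells led in different shares of the fibre barcodes of each library, as given above, and the part of that difference in the member levels was not tested. Without the barcodes led by satellite cell or myoblast markers the order of the libraries was the same for every member. The log2 ratios moved past their intervals, to 0.59 for Myh3, -0.39 for Myh8, 0.94 for Myh4 and 0.53 for Myh1. Leaving out the barcodes led by macrophage markers was not tried.

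Levels of different genes in summed fibre barcodes were compared per length, while the dominant myosin and the shares of myosin UMIs described further on rest on plain UMIs. Per kilobase of gene span, in the AHRfl/fl library, Myh3 had 65.5 CPM, Myh1 28.0, Myh4 23.6, Myh8 18.5, Myh2 0.278 and Myh7 0.0258. In the AHRmKO library Myh3 had 90.1, Myh4 37.8, Myh1 33.9, Myh8 12.7, Myh2 1.36 and Myh7 0.0112. Myh4 and Myh1 thus exchanged places between the libraries. Per kilobase of the longest transcript Myh8 (94.9) passed Myh4 (88.0) in the AHRfl/fl library, so the order of these 2 depends on which length is used. The members also share sequence: of all 50-base stretches of the longest transcript, 26.7% of Myh1, 26.9% of Myh2, 21.4% of Myh8, 18.9% of Myh4 and 4.81% of Myh3 also occurred in another myosin heavy chain, and for Myh7 22.2%, all shared with Myh6. How the counting assigned such reads is not given in the sources used here.

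Myosin RNA was also present outside fibre barcodes. In barcodes of 200 to 499 UMIs, used here as the measure of free RNA, though what they hold was not tested, Myh3 stood at 2912 CPM in the AHRfl/fl library and at 427 in the AHRmKO library. Myh8 stood there at 685 and 85.4 CPM, Myh4 at 714 and 253, and Myh1 at 617 and 268. The median mitochondrial share of these barcodes was 2.39% and 14.7%, and its part in the difference was not tested. Against these levels, the AHRfl/fl fibre barcodes had 54.0% for Myh3, 85.1% for Myh8, 74.2% for Myh4 and 111% for Myh1. The AHRmKO fibre barcodes had 506%, 467%, 335% and 311%. These values depend on the barcodes taken as the measure. In barcodes of at most 100 UMIs Myh3 stood at 1615 and 808 CPM, Myh8 at 419 and 166, Myh4 at 398 and 313, and Myh1 at 331 and 292, so the libraries lay closer together. Against that level the AHRfl/fl fibre barcodes had 97.3% for Myh3, 139% for Myh8, 133% for Myh4 and 207% for Myh1, and the AHRmKO fibre barcodes had 240% to 285%. By both measures the fibre barcodes of the AHRmKO library stood above the low barcodes in all 4 abundant members, and Myh3 in the AHRfl/fl library did not.

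Macrophage-class barcodes, which should lack sarcomeric myosins, had 442 CPM of Myh3 in the AHRfl/fl library and 72.1 in the AHRmKO library. As percentages of the level in barcodes of 200 to 499 UMIs these were 15.2% and 16.9%. For Myh8, Myh4 and Myh1 the AHRfl/fl macrophage class had 14.8%, 15.1% and 15.6% of that level, and the AHRmKO class 11.9%, 13.3% and 12.5%. Fibroblast-class barcodes had 12.6% to 13.5% over these 4 members in the AHRfl/fl library and 9.44% to 14.5% in the AHRmKO library. Endothelial-class barcodes had 15.0% to 16.1% and 11.9% to 16.1%. Against barcodes of at most 100 UMIs the macrophage class had 24.2% to 29.1% over the 4 members in the AHRfl/fl library and 6.12% to 11.4% in the AHRmKO library. By either measure no level in these 3 classes is read as expression. The 9 AHRmKO barcodes led by markers of fusing myocytes (Myog, Mymk, Mymx, Cdh15) that missed the fibre gate stood apart in Myh3 alone, at 734 CPM from 29 UMIs or 172% of the level in barcodes of 200 to 499 UMIs, whereas the 85 such AHRfl/fl barcodes had 16.6%.

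**Figure D1:**
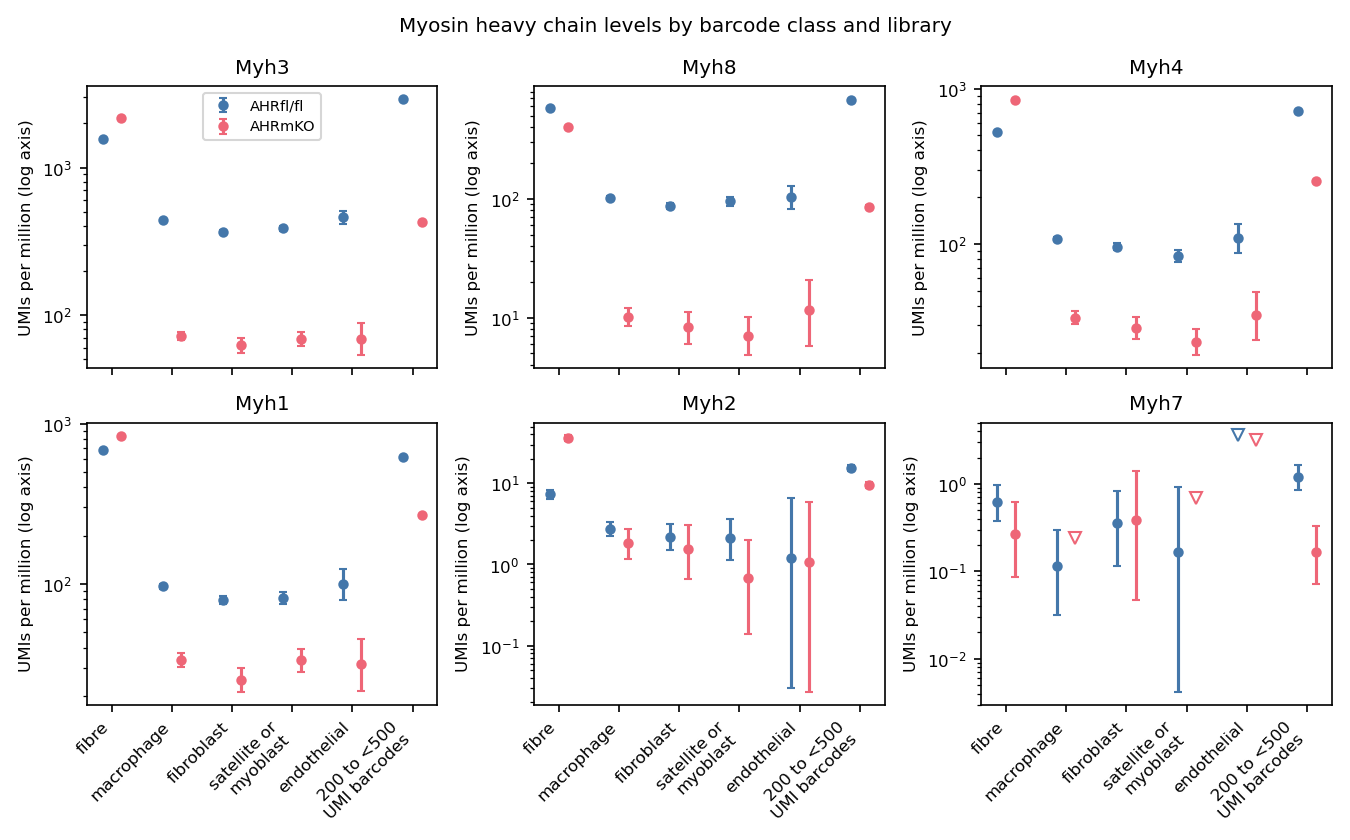
Level of each member (vertical log axis, CPM) in fibre barcodes, in 4 other classes and in barcodes of 200 to 499 UMIs, by library; bars are exact Poisson intervals and open triangles mark the level that 3 UMIs would give where none was counted. In the AHRfl/fl library (blue) Myh3 is higher in barcodes of 200 to 499 UMIs (2912) than in fibre barcodes (1571), and in the AHRmKO library (red) it is lower (427 against 2162).

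In single fibre barcodes, a member counted as detected with 2 or more UMIs. Myh3 was detected in 89.6% of AHRfl/fl and 57.9% of AHRmKO fibre barcodes, with a median of 7 and 5 UMIs and a maximum of 128 and 178. In macrophage-class barcodes, with median depths of 3099 and 3231 UMIs, it was detected in 49.3% and 3.91%. A large part of the AHRfl/fl share thus lies within the range seen in a class that should lack the gene. Myh8 was detected in 44.9% and 22.9% of fibre barcodes (macrophage class 6.92% and 0.295%). Myh4 was detected in 39.2% and 30.9% (8.13% and 1.33%), and Myh1 in 49.4% and 32.7% (6.12% and 1.33%). Thinned to 2000 UMIs per barcode, the fibre shares were 69.7% and 52.3% for Myh3, 25.8% and 15.1% for Myh8, 22.6% and 24.9% for Myh4, and 29.2% and 23.2% for Myh1. For Myh4 the order of the libraries thus turned with depth, and no order is read from its shares. The order for Myh3 turned under the stricter limit given below. Myh2 was detected in 0.233% and 1.38% of fibre barcodes, and Myh7 in 1 barcode of each library.

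Co-expression was common. Of AHRfl/fl fibre barcodes 68.6% (67.3 to 69.9) and of AHRmKO fibre barcodes 36.4% (34.8 to 37.9) held 2 or more detected members. Thinned to 2000 UMIs the shares were 44.2% and 28.5%, beside 2.996% and 0.148% in macrophage-class barcodes thinned likewise. Before thinning, the macrophage class held 2 or more members in 11.1% of AHRfl/fl and 0.516% of AHRmKO barcodes.

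**Figure D2:**
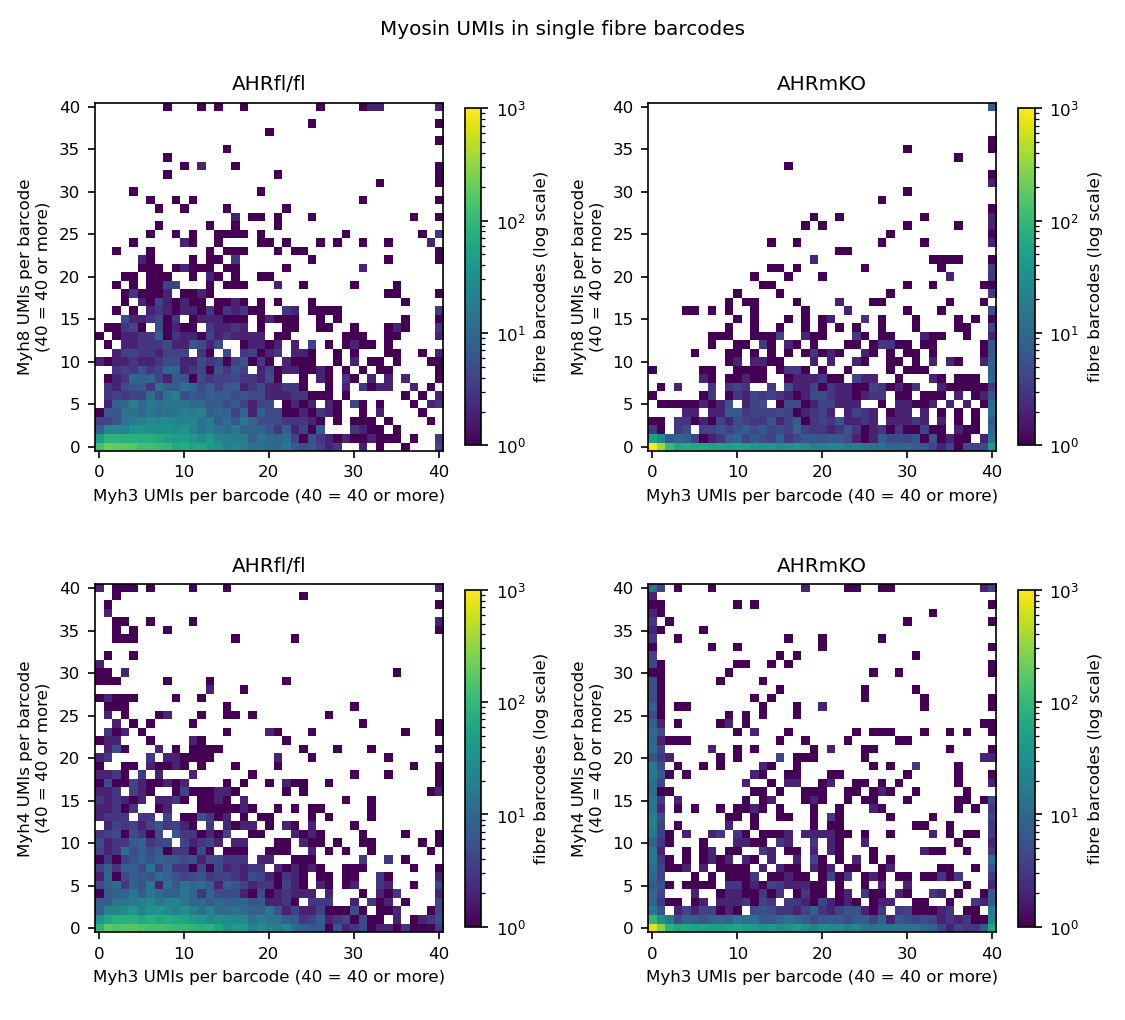
UMIs of Myh8 (top) or Myh4 (bottom) against UMIs of Myh3 in single fibre barcodes, by library; colour gives the number of barcodes on a log scale and the last bin holds 40 or more UMIs. In the AHRmKO library a band of barcodes with many Myh4 UMIs runs along 0 Myh3, and barcodes with many Myh8 UMIs lie away from 0 Myh3; the AHRfl/fl barcodes fill the space between.

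To take account of free RNA, a stricter limit was added after the data had been seen: 2 or more UMIs and more than the 99.9% point of a Poisson count at the macrophage-class level of the same library and the barcode's own depth. By this limit Myh3 was present in 41.5% of AHRfl/fl and 52.7% of AHRmKO fibre barcodes, Myh8 in 24.6% and 21.5%, Myh4 in 20.4% and 26.7%, and Myh1 in 27.6% and 25.5%. In fibroblast-class barcodes no member passed it in more than 0.416% and 0.566%, in endothelial-class barcodes in more than 0.966% and 1.06%, and in satellite cell or myoblast-class barcodes in more than 0.295% and 1.47%. These classes hold only barcodes that missed the 1% gate and so were chosen for little muscle RNA. Their low shares therefore cannot show how well the limit works in fibre barcodes. The macrophage class on which the limit rests was chosen in the same way, and the limit takes 1 level of free RNA per library. It can thus be too low for fibre barcodes with more free RNA. A count above the limit, here and in the combinations and splits below, does not show that free RNA was set aside. The share of fibre barcodes with 2 or more members was then 33.9% (1744 barcodes) and 31.4% (1184). Most of the gap between the libraries in co-expression was thus absent under this limit, but not when free RNA was subtracted instead. With the profile of barcodes of 200 to under 500 UMIs subtracted the shares were 53.03% and 31.03%. With that of at most 100 UMIs they were 53.5% and 31.03%. The Myh3 limit rests on macrophage-class levels of 442 CPM (AHRfl/fl) and 72.1 CPM (AHRmKO). The part of this in the smaller gap was not tested. The share with 2 or more members above the limit rose with depth in both libraries. In AHRfl/fl tertiles with median depths of 3344, 5137 and 8256 UMIs it was 22.6%, 33.4% and 45.8%. In AHRmKO tertiles with medians of 2552, 3885 and 6857 UMIs it was 19.9%, 31.4% and 42.9%.

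The 4 abundant members occurred in every combination, each in 74 or more AHRfl/fl barcodes. Myh3 alone was the most frequent, in 832 AHRfl/fl barcodes (16.2%) and 876 AHRmKO barcodes (23.2%). Myh4 alone was found in 337 (6.55%) and 407 (10.8%), and Myh1 alone in 276 (5.37%) and 194 (5.14%). All 4 of Myh3, Myh8, Myh4 and Myh1 occurred together in 115 (2.24%) and 233 (6.18%). The adult pair Myh4 and Myh1, without a developmental member, was found in 127 (2.47%) and 35 (0.928%), which makes mixed adult fast barcodes less frequent than single ones in both libraries.

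By this limit the partners of Myh8 differed between the libraries. Without Myh3 it was above the limit in 205 AHRfl/fl barcodes alone, in 160 with Myh1, in 78 with Myh4 and in 74 with both. The same 4 combinations held 3, 3, 4 and 7 AHRmKO barcodes. Of all Myh8 barcodes 59.1% of AHRfl/fl and 97.9% of AHRmKO were also Myh3 barcodes. In the other direction, 35.1% and 39.9% of Myh3 barcodes were Myh8 barcodes, so in the AHRmKO library nearly all Myh8 barcodes were Myh3 barcodes. The limit for Myh3 rests on 442 CPM in the AHRfl/fl library and 72.1 CPM in the AHRmKO library, so low Myh3 levels are recognised less readily in the former, and the part of this in the difference was not tested. Of Myh4 barcodes 41.1% and 54.9%, and of Myh1 barcodes 55.0% and 72.7%, were Myh3 barcodes. All 3 comparisons depend on the limit. By plain detection with 2 or more UMIs, Myh3 was present in 97.3% and 98.8% of Myh8 barcodes, in 91.3% and 60.9% of Myh4 barcodes, and in 96.4% and 77.2% of Myh1 barcodes. The order of the libraries was then the reverse for Myh4 and Myh1, and no order is read for them.

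**Figure D3:**
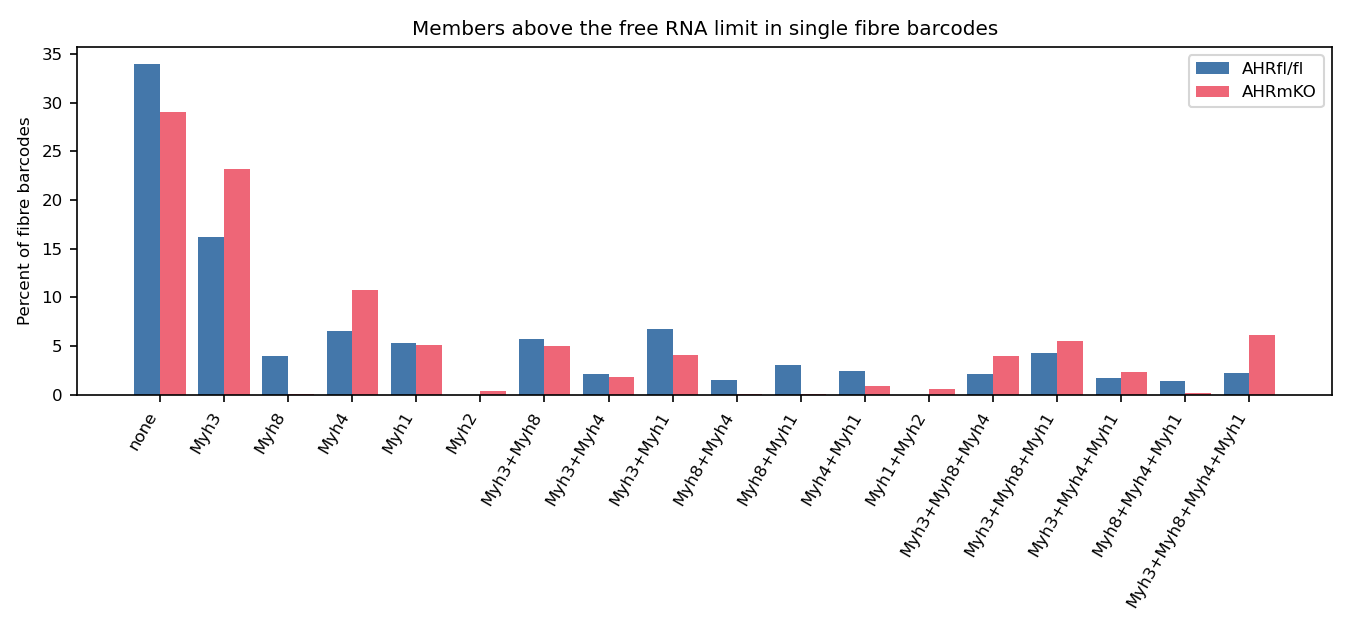
Percent of fibre barcodes (vertical axis, from 0) in which each combination of members was above the free RNA limit, by library. Myh8 alone, with Myh4 or with Myh1 (3.99%, 1.52% and 3.11% of AHRfl/fl barcodes) is nearly absent in the AHRmKO library, where all of Myh3, Myh8, Myh4 and Myh1 together take 6.18%.

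No member was above the limit in 1749 AHRfl/fl (34.0%) and 1093 AHRmKO (29.0%) fibre barcodes. Of these, 47.4% of AHRmKO and 11.7% of AHRfl/fl barcodes were led by satellite cell or myoblast markers. Pax7, the transcription factor that marks satellite cells, stood at 526 CPM in them in the AHRmKO library and at 77.1 CPM in the AHRfl/fl library. The gate on long muscle transcripts thus also took in barcodes with satellite cell markers. A level under the limit does not show that myosin RNA was absent.

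Each fibre barcode with 5 or more UMIs of the 6 members and no tie was then given its dominant myosin, the member with the most UMIs. Of AHRfl/fl barcodes 4237 and of AHRmKO barcodes 2593 could be scored, while 13.6% and 30.2% had fewer than 5 myosin UMIs. Myh3 dominated in both libraries, in 2815 barcodes (66.4%, 65.0 to 67.9) and 1680 barcodes (64.8%, 62.9 to 66.6). The difference of -1.65 points had an interval of -3.98 to 0.67, and its sign changed with the processing. Free RNA was not subtracted from these UMIs. Myh3 was above the free RNA limit in 2134 AHRfl/fl fibre barcodes, fewer than it dominated, and in 1987 AHRmKO fibre barcodes. With the profile of barcodes of 200 to under 500 UMIs subtracted the Myh3 difference was 9.66 points. With that of at most 100 UMIs it was 8.36 points. The Myh3 shares of the libraries are therefore not read as like quantities. Myh8 dominated in 382 barcodes (9.02%) and 45 barcodes (1.74%), a difference of -7.28 points (-8.28 to -6.27). Myh4 dominated in 488 (11.5%) and 528 (20.4%), a difference of 8.84 points (7.04 to 10.7). Myh1 dominated in 552 (13.03%) and 319 (12.3%), a difference of -0.73 points (-2.33 to 0.92).

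Myh8-dominant barcodes were thus less frequent and Myh4-dominant ones more frequent in the AHRmKO library under each of the 15 alternatives tried, between -11.2 and -0.677 points and between 4.64 and 16.9 points. Myh2 dominated in no AHRfl/fl barcode, which allows a share of up to 0.0708% by a limit of 3 counts (0.0870% by the exact interval), and in 21 AHRmKO barcodes (0.810%). No barcode of either library was Myh7-dominant, which allows up to 0.0708% and 0.116% by the same limit of 3 counts (0.0870% and 0.142% by the exact intervals).

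**Figure D4:**
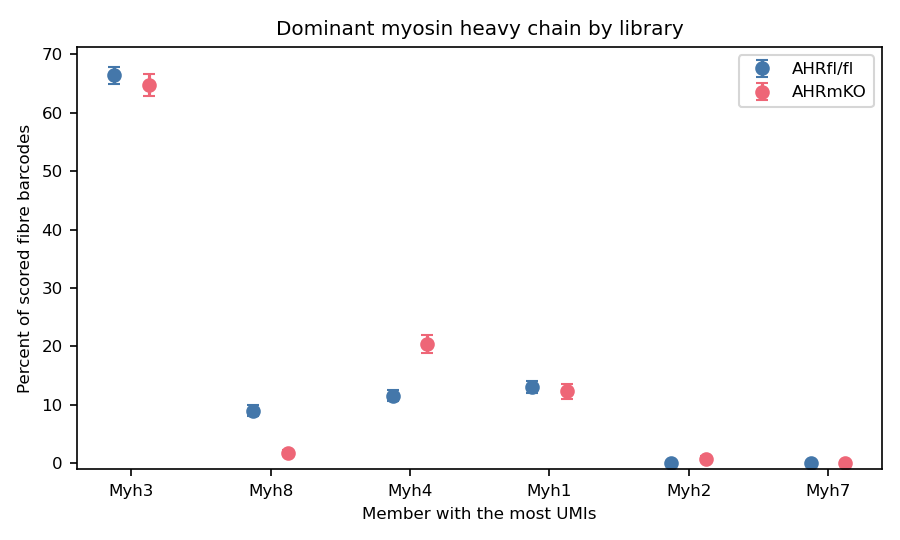
Percent of scored fibre barcodes (vertical axis) in which each member had the most UMIs, by library; bars are exact Clopper-Pearson intervals. The points for Myh3 (66.4% and 64.8%) and Myh1 (13.03% and 12.3%) lie close together, whereas those for Myh8 (9.02% and 1.74%) and Myh4 (11.5% and 20.4%) lie apart. Free RNA was not subtracted from these UMIs.

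How pure the dominant myosin was differed by isoform. In Myh4-dominant barcodes the median share of Myh4 among myosin UMIs was 60% in the AHRfl/fl and 96.8% in the AHRmKO library. For Myh1 the medians were 52.8% and 94.0%, and for Myh3 66.7% and 81.8%. The Myh8-dominant barcodes were mixed in both libraries, with medians of 50% and 45.5%, and Myh3 came second in 75.4% and 75.6% of them. Perinatal myosin was not found near-pure in the AHRmKO library: 0 of 45 Myh8-dominant barcodes reached 80% Myh8, which allows up to 6.67%, against 74.1% of Myh4-dominant and 63.6% of Myh1-dominant barcodes for their own member. In the AHRfl/fl library 1.83%, 29.3% and 4.35% reached it. Myh3 stood at 442 CPM in the AHRfl/fl macrophage class. The source of that RNA, and the part of such RNA in the lower purity, were not tested.

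The Myh2-dominant barcodes of the AHRmKO library were few. Of their myosin UMIs 82.8% were Myh2, 15.7% Myh1 and 0.883% Myh3. Of the 52 barcodes with Myh2 above the free RNA limit 71.2% also held Myh1, the isoform next to IIa in the usual order of fibre types, and 26.9% held Myh3. In the 21 Myh2-dominant barcodes Ppargc1a, the coactivator of mitochondrial biogenesis, stood at 641 CPM, against 309 in Myh1-dominant and 69.1 in Myh3-dominant barcodes of the same library. Esrrg, an oestrogen-related receptor of oxidative fibres, stood at 1016 CPM against 534 and 107. Ppara, the fatty acid-sensing nuclear receptor, which was chosen after its values were seen, stood at 556 CPM against 219 and 29.9. Ahr gave no UMI in these 21 barcodes, which allows a level of up to 36.3 CPM and so does not separate them from the other fibres. In the AHRfl/fl library Ppara stood at 25.7 CPM in Myh1-dominant and 22.9 in Myh3-dominant barcodes.

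Other fibre genes were then read in barcodes of different dominant myosin. The 2815 Myh3-dominant AHRfl/fl barcodes outnumber the 2134 with Myh3 above the free RNA limit, so some of them were not above it. A gene was called when it differed by 2-fold or more in the same direction in both libraries. Between Myh4- and Myh3-dominant barcodes, 3.15% of 14684 genes were higher and 3.39% lower with Myh4, with medians over these genes of -0.07 (AHRfl/fl) and -0.03 (AHRmKO) on the log2 scale. Of the 14 fast fibre genes 6 were higher and none lower with Myh4 (Pvalb, Myoz1, Mybpc2, Gpd1, Atp2a1 and Casq1), with medians of 0.66 and 1.35. Of 10 slow fibre genes with 10 or more UMIs Tnnc1 alone was lower (medians -0.57 and -1.15), and of 15 developmental sarcomere and fusion genes Myl4 and Tnnt2 were lower (-0.65 and -1.49). Of 11 genes for myosin folding and thick filament assembly 4 were higher, Trim63, Trim54, Mybpc1 and Mybpc2 (0.39 and 1.20). The folding genes of that list were not among them and had log2 ratios below 0 in both libraries. These were Unc45b (-0.28 and -0.61), Smyd1 (-0.04 and -0.15) and Hsp90aa1 (-0.73 and -0.94). Of 22 fibre type regulators 2 were higher, Hdac4 and Ppargc1a (0.16 and 0.50). Gpd1 and Mybpc2 are named here because they were counted, after their values were seen.

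Pvalb, the calcium buffer of fast fibres, had 87.0 CPM in Myh4-dominant AHRfl/fl barcodes and 9.28 in Myh3-dominant ones, and 181 against 10.5 in the AHRmKO library. Myoz1, a Z-disc protein of fast fibres, had 141 against 36.3 and 274 against 23.1. Atp2a1, the fast sarcoplasmic calcium pump, and Casq1, its calcium store partner, were higher with Myh4 by 1.17 and 1.31, and by 1.03 and 1.40, on the log2 scale. Among developmental genes, Myl4, the embryonic myosin light chain, had 121 CPM with Myh4 against 284 with Myh3, and 53.5 against 283. Mymk, the membrane protein that fuses myoblasts, had 127 against 254 and 44.3 against 217, which in the AHRfl/fl library fell just short of 2-fold. Tnnt2, the developmental and cardiac troponin T, had 277 against 557 and 189 against 861. Of the slow genes Tnnc1 had the largest difference, but it overlaps the more abundant gene Nisch on the opposite strand and the use of strand is not stated, so its value is uncertain.

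Trim63 led the thick filament list among genes of 50 CPM or more. It encodes the muscle ubiquitin ligase MuRF1, which acts on thick filament proteins. Its level was 1082 CPM with Myh4 and 169 with Myh3 in the AHRfl/fl library, a log2 ratio of 2.68 (2.61 to 2.75). In the AHRmKO library it was 1361 against 146, a log2 ratio of 3.21 (3.13 to 3.31). Myh1-dominant barcodes lay between, at 214 and 707 CPM. Hdac4, a repressor that responds to loss of nerve input, had 288 and 336 CPM with Myh4 against 79.0 and 87.8 with Myh8.

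Between Myh1- and Myh3-dominant barcodes fewer genes were called: 0.667% of 14536 higher and 1.21% lower with Myh1. Of the fast fibre genes 1 of 14 (Myoz1), of the regulators 1 of 22 and of the thick filament genes 1 of 11 were higher, and none of the listed genes was lower. Esrrg was that regulator, at 461 CPM against 204 and 534 against 107. Mybpc1, a myosin-binding protein, was the thick filament gene, at 3173 against 1454 and 3757 against 1198. Between Myh4 and Myh1, 0.663% of 12216 genes were higher and 0.164% lower with Myh4, and 2 of 14 fast fibre genes (Pvalb and Mybpc2) and 1 of 11 thick filament genes (Mybpc2) were higher. Between Myh8 and Myh3, 0.35% of 14272 genes were higher and 1.99% lower with Myh8, among them Myoz1 of 14 fast genes higher and Prox1 of 22 regulators lower (29 and 3 UMIs with Myh8). Barcodes led by the perinatal and by the embryonic isoform thus differed in few listed genes by this mark. The AHRmKO Myh8-dominant set held only 45 barcodes. Myh3 came second in 75.4% and 75.6% of Myh8-dominant barcodes, so both compared sets held Myh3.

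An adult fast myosin stood in different company with and without developmental myosins above the free RNA limit. Barcodes with Myh4 above this limit were split after the data had been seen. Neither Myh3 nor Myh8 was above it in 465 AHRfl/fl and 443 AHRmKO barcodes, and both were in 228 and 392. Median depths were 5037 and 2992 UMIs without and 6461 and 5233 with. Without here means not above the limit and does not mean absent. For Myh3 the limit rests on 442 CPM in the AHRfl/fl library and 72.1 CPM in the AHRmKO library. By plain detection Myh3 was present in 91.3% and 60.9% of Myh4 barcodes. Of 12242 genes, 3.46% were higher and 1.87% lower in the barcodes without, by 2-fold in both libraries. Of the developmental genes 7 of 15 were lower and none higher without Myh3 and Myh8, with medians of -0.95 and -3.43. The slow list followed with 5 of 10 lower, Tnnt1, Tnnc1, Myoz2, Pdlim1 and Myh7b (-1.01 and -3.79). Of the fast fibre genes 2 of 14 were higher, Pvalb and Mybpc2, and Mylpf was lower (0.02 and 0.71). In this split of Myh4 barcodes a larger share of the developmental and slow genes than of the fast ones was called. That difference between lists was not tested. Markers of other classes moved with the split. Those of fusing myocytes, which share Myog, Mymk and Mymx with the developmental list, led in 5.38% of AHRfl/fl barcodes without and 11.4% with, and in 0.226% and 8.67% of AHRmKO barcodes. Satellite cell or myoblast markers led in 2.37% and 3.07%, and in 2.71% and 8.93%, and macrophage markers in 52.5% and 49.1%, and in 21.0% and 13.5%. The part of these in the differences was not tested.

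Of the 22 regulators Hdac4 was higher and Mafa lower (-0.12 and -0.08), and of the 11 thick filament genes Trim63 and Mybpc2 were higher (0.16 and 0.37). The medians over all genes were 0.02 and 0.06.

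Several genes were low in the AHRmKO barcodes without. Ncam1, the cell adhesion molecule of regenerating and denervated fibres, had 347 CPM without and 4966 with Myh3 and Myh8 (log2 ratio -3.84, -3.96 to -3.72). Chrng, the fetal subunit of the acetylcholine receptor, had 34.5 against 586, and Actc1, the cardiac actin of developing fibres, 13.9 against 346. Chrng and Actc1 were picked outside the rule for named genes. Myl4 had 10.9 against 280. In the AHRfl/fl library these genes differed in the same direction by less: Ncam1 3105 against 4702, Chrng 191 against 310, Actc1 274 against 881, and Myl4 132 against 442. Free RNA was estimated at 16.5% of AHRfl/fl and 16.7% of AHRmKO macrophage-class UMIs from barcodes of 200 to 499 UMIs, and at 27.4% and 10.3% from those of at most 100, and its part in the smaller differences was not tested.

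On the other side of the split stood Trim63, Pvalb and Hdac4. Trim63 had 1035 CPM without and 187 with Myh3 and Myh8 in the AHRfl/fl library (log2 ratio 2.46, 2.30 to 2.64), and 1801 against 267 in the AHRmKO library (2.75, 2.63 to 2.88). Pvalb had 88.9 against 17.5 and 255 against 12.3. Hdac4 had 276 against 60.1 and 433 against 104. Mybpc2, the fast myosin-binding protein, which was chosen after its values were seen, had 20.9 against 4.09 and 222 against 7.91. The highest doublet scores took 13.1% and 7.45% of the barcodes without and 10.5% and 3.83% of those with, while in the AHRmKO library Myh3 with Myh1 had 12.9%, against 6.51% for Myh3 alone and 9.79% for Myh1 alone.

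For Myh1 the same split was less marked in the AHRfl/fl library. Without Myh3 and Myh8 stood 404 AHRfl/fl and 253 AHRmKO barcodes, and with both 341 and 450. Fusing myocyte markers led in 6.19% of AHRfl/fl barcodes without and 11.1% with, and in 0% and 13.1% of AHRmKO barcodes. Satellite cell or myoblast markers led in 4.95% and 4.40%, and in 6.32% and 9.11%, and macrophage markers in 47.8% and 42.2%, and in 17.0% and 12.4%. The highest doublet scores took 21.3% and 9.38%, and 9.09% and 4.22%, and the median depths were 5516 and 6656, and 3252 and 5254.5 UMIs. The part of these in the differences was not tested. Of 12153 genes 1.28% were higher and 0.601% lower without, and of the developmental genes 2 of 15 were lower (medians -0.62 and -3.42), namely Actc1 and Myl4, and Mybpc2 alone of the fast and thick filament genes was higher. Of the slow genes 0 of 10 were lower, with medians of -0.46 and -3.16, and of the regulators 0 of 22 were called. In the AHRmKO library Ncam1 had 481 against 5149 CPM, close to its values beside Myh4. Ppara, also chosen after its values were seen, had 323 CPM without and 20.4 with the developmental members in the AHRmKO library, and 23.4 against 18.6 in the AHRfl/fl library. Beside Myh4 its AHRmKO values were 41.8 and 21.0 CPM, so of these 4 AHRmKO sets the Myh1 barcodes without developmental members had the highest level.

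**Figure D5:**
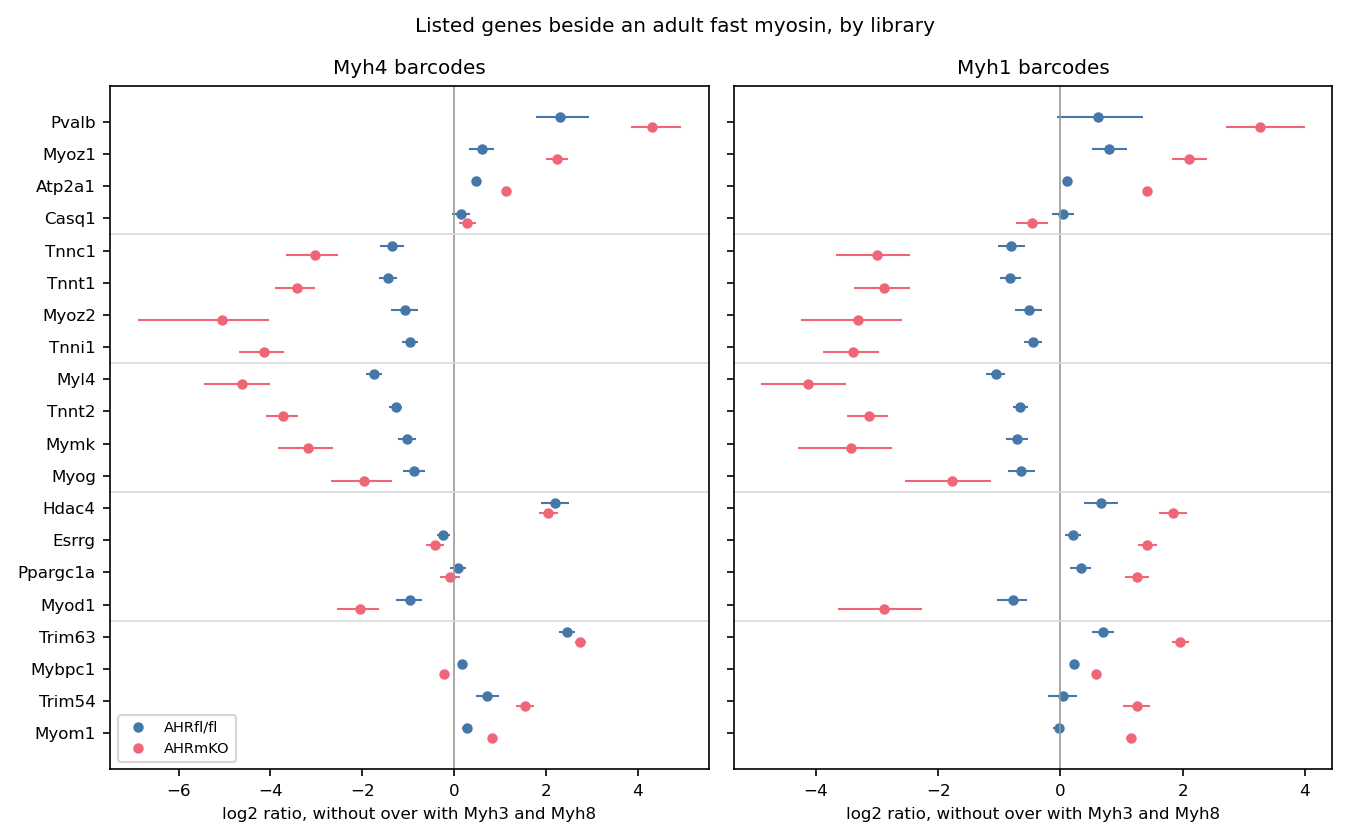
Log2 ratio of each listed gene in Myh4 barcodes (left) and Myh1 barcodes (right) without Myh3 and Myh8 over those with both, by library; lines are exact conditional intervals for counting error, and pale lines separate the gene lists. Trim63, Pvalb and Hdac4 lie to the right of 0 and the developmental genes Myl4, Tnnt2, Mymk and Myog to the left in both libraries; the line of Pvalb in the AHRfl/fl library crosses 0 beside Myh1.

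The genes most like each member over fibre barcodes were ranked by the lower of both libraries' Pearson correlations of log(1 + counts per 10000), over 8295 genes in 5144 and 3771 barcodes. Barcodes of a library share its depth and free RNA, so these are descriptions. For Myh3 they were Dclk1 (0.47 and 0.66), Palld (0.43 and 0.70), Casq2 (0.43 and 0.64), Itgb1bp2 (0.41 and 0.63) and Ncam1 (0.38 and 0.65). For Myh8 they were Itgb1bp2 (0.42 and 0.65), Actn2 (0.41 and 0.44), Myom3 (0.38 and 0.58), Gm43824 (0.37 and 0.57) and Myl1 (0.37 and 0.48). Itgb1bp2, the muscle integrin-binding protein melusin, was thus named for both developmental members. For Myh4 they were Cmya5 (0.46 and 0.64), Cped1 (0.39 and 0.54), Limch1 (0.37 and 0.42), Trdn (0.37 and 0.61), which is also a gate gene, and Atp2a1 (0.37 and 0.44). For Myh1 they were Actn2 (0.39 and 0.51), Itgb1bp2 (0.38 and 0.39), Mybpc1 (0.37 and 0.39), Myl1 (0.37 and 0.33) and Trdn (0.33 and 0.41). Itgb1bp2 was thus also among the genes of the adult isoform Myh1.

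Between members, Myh3 and Myh8 had correlations of 0.31 and 0.52, and Myh8 and Myh1 of 0.32 and 0.35. Myh3 and Myh4 had -0.01 and 0.00, the values nearest 0 among the 4 abundant members. Myh4 and Myh1 had 0.19 and 0.11, and Myh1 and Myh2 0.11 and 0.26. Of the adult fast isoforms, Myh1 was thus nearer to the developmental ones than Myh4 was.

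The mix of myosins moved with the share of the gate genes. These genes were themselves higher in Myh4- than in Myh3-dominant barcodes of the AHRfl/fl and AHRmKO libraries. The log2 ratios were 0.17 and 0.46 for Ttn, 0.55 and 0.39 for Neb, 1.19 and 1.82 for Trdn, and 1.09 and 1.78 for Dmd. Bins of a larger share, and the gate itself, can therefore favour Myh4 over Myh3 barcodes. The shifts below cannot be told apart from how the bins were made. In AHRfl/fl barcodes with gate genes at 1% to 2% of UMIs, Myh3 gave 60.7% and Myh4 10.1% of myosin UMIs, and at 5% to 10% they gave 32.5% and 33.0%. In the AHRmKO library Myh3 gave 64.6% and Myh4 13.5% at 1% to 2%, and 49.99% and 18.4% at 5% to 10%. At 10% or more, 364 AHRmKO barcodes had 23.1% Myh3 and 42.4% Myh4, while the 11 AHRfl/fl barcodes that reached that share had 54.5% and 13.8%. The shift was not even over the range, since from 1% to 2% to the next bin, 2% to 3%, the AHRmKO share of Myh3 went from 64.6% to 75.5% and that of Myh4 from 13.5% to 9.11%.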

How the data were processed

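The deposited gene-by-barcode matrices hold raw UMI counts, made by the authors with Cell Ranger 7.0.1 on mm10 per the submitters' processing notes (matrix format version 4, per the file headers). Whether intronic reads were counted, and whether strand was used, is not given in the sources used here. Python 3.11.15, numpy 2.4.6, scipy 1.17.1 and pandas 2.3.3 were used, with scanpy 1.11.5 for doublets. Each library was read as 1 sample of its group, so no test was run.

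Fibre barcodes had 2000 or more UMIs with 1% or more from Ttn, Neb, Trdn and Dmd. Other barcodes of that depth were given to a class by 3 or more UMIs from 2 or more of its markers, with ties left out. Summed UMIs were turned into CPM of the set, with exact Poisson intervals. Shares carry exact Clopper-Pearson intervals, and differences of shares Newcombe intervals. Ratios carry exact conditional intervals. A gene was tested for a 2-fold difference with 10 or more UMIs, summed over both libraries for a comparison of libraries and over both sets of each library for a comparison of sets. Doublet scores came from Scrublet at a rate of 0.4% per 1000 barcodes, and no barcode was left out for them except as an alternative. The named genes were the members, the 5 most correlated genes per member among genes in 5% or more of fibre barcodes, and up to 4 genes per list of 50 CPM or more with the largest fold in the same direction in both libraries. Further genes, such as Chrng and Actc1, were named outside this rule. The members and lists were chosen with earlier results of these data known, and the free RNA limit and the split by Myh3 and Myh8 after the values were seen. Promoter sequences come from RefSeq (GRCm38.p6), and all 6 members matched. The scripts were tested on simulated data. Alternatives to the UMI minimum, gate, detection, dominance, scaling, free RNA and doublets were tried.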

Additional observations from a re-analysis of the deposited data

Results flagged for a closer look

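Among listed genes, 2 differed between barcodes of different dominant myosin in opposite directions in the libraries, with both counting intervals away from 0 and a log2 ratio of at least 0.5 in size. Myh7b, a slow myosin heavy chain whose host transcript carries a muscle microRNA, was higher in Myh1- than in Myh3-dominant AHRfl/fl barcodes (log2 ratio 0.57; 23.7 against 15.8 CPM) and lower in the AHRmKO library (-0.89; 8.43 against 16.1 CPM). Myom3, an M-band protein of the sarcomere, gave 0.52 (636 against 445 CPM) and -0.62 (285 against 438 CPM).

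The antisense transcript Myhas overlaps part of Myh1 on the opposite strand. In Myh4- over Myh1-dominant barcodes its log2 ratio was -0.63 in the AHRfl/fl library (58.4 against 90.9 CPM) and 3.16 in the AHRmKO library (61.9 against 6.48 CPM). Whether strand was used in counting is not stated, so reads in the stretch that Myhas and Myh1 share cannot be told apart. None of these 3 differences between the libraries was tested, because each group is 1 library.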

How the results depend on the processing

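Among the differences in dominance and in levels, none whose interval excluded 0 changed its direction, while the order of the libraries turned for detection of Myh4 on thinning (22.6% and 24.9%) and of Myh3 under the free RNA limit (41.5% and 52.7%). Moved values follow in the order of libraries AHRfl/fl and AHRmKO, with differences as AHRmKO minus AHRfl/fl in points; their causes were not tested except where the setting itself shows one. With a UMI minimum of 1000 the share of fibre barcodes with 2 or more members was 64.4% and 29.5%, and the differences in dominance were -13.8 for Myh3, 16.9 for Myh4 and 2.72 for Myh1. With a minimum of 3000 these were 70.9% and 41.9%, and 4.61, 4.64 and -2.90. With the gate at 0.5% co-expression was 56.8% and 30.9%. With the gate at 2% it was 80.2% and 44.3%, and the differences were 3.67 for Myh3, -8.66 for Myh8, 6.71 for Myh4 and -2.56 for Myh1. Limiting mitochondrial UMIs to 5% gave 69.95% and 39.4%. Counting a member from 1 UMI gave 88.997% and 54.4%, and from 3 UMIs 57.2% and 31.03%. With 10 or more myosin UMIs the differences were 1.11 for Myh3 and -8.58 for Myh8. With a top member of 80% or more they were -23.4 for Myh3, -0.677 for Myh8, 12.1 for Myh4 and 11.1 for Myh1, the 80% mark removing most mixed barcodes. Thinned to 2000 UMIs they were 2.83 for Myh3 and -10.02 for Myh8, with co-expression in 44.2% and 28.5%. With the profile of 200 to 499 UMIs subtracted they were 9.66 for Myh3, -11.2 for Myh8, 6.71 for Myh4 and -6.01 for Myh1, with 53.03% and 31.03%. With the profile of at most 100 UMIs subtracted they were 8.36, -10.4, 6.48 and -5.30, with 53.5% and 31.03%. Chosen after seeing the data, leaving out barcodes led by satellite cell or myoblast markers gave 10.9 for Myh4 and 70.2% and 42.1%, dividing UMIs by gene span gave -5.11 for Myh8, and the free RNA limit gave 33.9% and 31.4%. The Myh3 difference was thus below 0 in 9 and the Myh1 difference in 12 of 15 alternatives, so neither has a direction. Log2 ratios of levels ranged over 13 alternatives from 0.32 to 0.94 for Myh3, -0.68 to -0.29 for Myh8, 0.48 to 0.97 for Myh4, 0.20 to 0.53 for Myh1, 1.73 to 2.73 for Myh2 and -0.68 to -0.09 for Myh7. Leaving out the highest doublet scores moved no share and no difference in dominance past its interval, but 4 log2 ratios of levels, to 0.40 for Myh3, 0.62 for Myh4, 0.21 for Myh1 and 2.06 for Myh2. Myh7, at 19 and 5 UMIs, is limited by depth. No paired analysis was possible because each group is 1 library.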
